A study of Mus musculus with 3 samples.

Results

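The genes described here encode 9 RNA-binding proteins that set how long inflammatory mRNAs last: the zinc finger proteins Zfp36, Zfp36l1 and Zfp36l2, the Regnase endonuclease family Zc3h12a, Zc3h12b, Zc3h12c and Zc3h12d, and the AU-rich element binders Elavl1 and Khsrp. They were chosen by name from 55536 annotated genes, and all 9 averaged 10 or more expected counts per library, as did 15881 genes in all. RNA came from nuclei of bone marrow-derived macrophages, phagocytes grown in culture from marrow progenitors of C57BL/6J mice, after 15 min with Lipid A at 100 ng/ml. Lipid A is the lipid anchor of bacterial lipopolysaccharide, and macrophages sense it through Tlr4. After ribosomal RNA depletion, total RNA was sequenced in 3 libraries of 1 group, labelled as biological replicates. The fraction is called nuclear in some labels and nucleoplasmic in others (nucleoplasmic RNA is a part of nuclear RNA), and the values are those of that fraction. Every library carries the same treatment and none is untreated, so the values are levels at this time and not changes caused by Lipid A. The labels name a single donor entry for all libraries and give no age or sex, so the differences among libraries, and any p-value built on them, may be technical in origin.

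Zfp36, also called tristetraprolin, and its relatives Zfp36l1 and Zfp36l2 bind AU-rich elements in the 3' untranslated region (UTR) of mRNAs and recruit the Ccr4-Not complex, which removes the poly(A) tail. In macrophages Zfp36 limits the output of Tnf and other cytokine mRNAs, and it also binds its own mRNA. Zc3h12a, or Regnase-1, is an endonuclease that cuts stem-loops in the 3' UTR of cytokine mRNAs, and its protein is degraded after signalling through Tlr4. Elavl1, also called HuR, protects many AU-rich mRNAs from decay, and Khsrp, or KSRP, promotes their decay. Nuclear RNA holds new and incompletely processed transcripts as well as finished mRNA, and its level is not the level of the protein.

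The libraries held 18516063, 17345644 and 20947006 expected counts in annotated genes for replicates 1 to 3, and replicate 2 was made from 500 ng of RNA where the others had 1 µg. All 10 macrophage markers reached 10 TPM (a level corrected for transcript length and library size), with summed levels of 2801, 3816 and 3264 TPM in replicates 1 to 3. The 32 markers of 8 other cell types summed to 258, 135 and 105 TPM, of which Pf4, Vwf and Cd4 were the 3 at 10 TPM or more. Cd3e, Ly6g, Pdgfra, Mcpt4 and Fcer1a had 0 counts in every library. Protein-coding genes took 27.5%, 35.6% and 21.3% of all TPM, so a TPM value is compared here mainly between genes of the same library, and libraries are compared on counts. Printed CPM values are scaled by library total alone, and log2 CPM values also carry edgeR's TMM factors, which correct for differences in composition. In bulk RNA, fewer expressing cells and less RNA per cell cannot be told apart.

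Zfp36 was the most abundant of the 9 genes in every library. It stood at 324, 332 and 388 TPM in replicates 1 to 3, a mean of 348 ± 35.1 TPM (SD, n = 3), and ranked 48 among 11963 measured protein-coding genes, whose median was 6.87 TPM. TPM as a level depends on the table and on what it is scaled over. Zfp36 had 116, 184 and 49.7 TPM in the second transcript table, made by another method, with replicate 3 lowest instead of highest, and 1308 ± 458 TPM (SD, n = 3) when scaled over protein-coding genes alone. Zfp36l1 (chromosome 12, 80107754 to 80113013, minus strand, GRCm38) followed with 53.1, 84.2 and 58.5 TPM, and Zfp36l2 (chromosome 17, 84183931 to 84187947, minus strand) with 29.8, 38.9 and 34.5 TPM. The order Zfp36, Zfp36l1, Zfp36l2 was the same in all 3 libraries. The Zfp36 family together had 447 ± 37.8 TPM, of which Zfp36 made up 79.6%, 72.9% and 80.7%, or 77.7 ± 4.19% (SD, n = 3). Zfp36l1 made up 14.6 ± 3.44% and Zfp36l2 7.68 ± 0.752%.

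The other factors were present at lower levels. Khsrp (chromosome 17, 57021051 to 57031522, minus strand) had 23.4, 20.3 and 15.6 TPM in replicates 1 to 3. Zc3h12a (chromosome 4, 125118423 to 125127840, minus strand) had 18.5, 13.3 and 21.7 TPM, and Elavl1 (chromosome 8, 4285382 to 4325413, minus strand) 13.9, 13.5 and 6.81 TPM. Khsrp was above Zc3h12a in replicates 1 and 2 and below it in replicate 3, so the ranges of these genes overlapped. Zc3h12d (chromosome 10, 7832470 to 7870396, plus strand), a Regnase best known from lymphocytes, had 9.69, 10.6 and 7.05 TPM. Zc3h12c (chromosome 9, 52111344 to 52168572, minus strand) had 4.78, 4.66 and 2.80 TPM. Zc3h12b (chromosome X, 95711678 to 95932637, plus strand) was the lowest, at 0.540, 0.450 and 0.230 TPM, from 78, 57 and 49 expected counts. Zc3h12b was thus well below every other Regnase in every library.

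**Figure D1:**
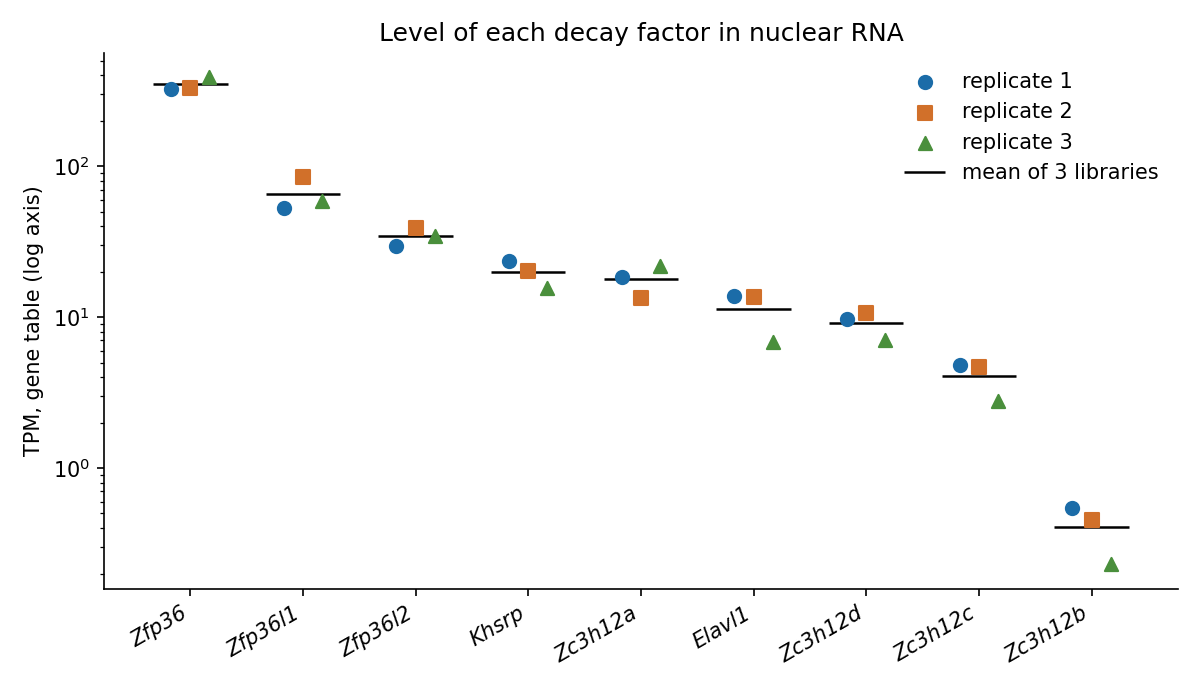
Level of the 9 decay factors in TPM on a log axis, with 1 symbol per replicate and a bar at the mean of the 3 libraries. Zfp36 lies between 324 and 388 TPM, Zc3h12b between 0.230 and 0.540 TPM, and the symbols overlap in height between Khsrp and Zc3h12a, Zc3h12a and Elavl1, and Elavl1 and Zc3h12d.

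Neighbours in this order were compared by the difference of log2(TPM + 0.1) within each library, and tested by flipping the signs of the 3 differences in all ways (exact permutation, two-sided), which cannot give a p below 0.25. A pair was called separated where the difference had 1 sign in all libraries and a mean above its SD, and 5 of 8 neighbouring pairs were. Zfp36 was 5.41-fold above Zfp36l1 (log2 2.44 ± 0.40), Zfp36l1 1.87-fold above Zfp36l2 (0.90 ± 0.19) and Zfp36l2 1.75-fold above Khsrp (0.81 ± 0.41). At the lower end, Zc3h12d was 2.23-fold above Zc3h12c (1.16 ± 0.15) and Zc3h12c 8.34-fold above Zc3h12b (3.06 ± 0.11, SD, n = 3; exact permutation p = 0.25 for each of the 5 pairs, 0.357 after Benjamini-Hochberg adjustment over 10 tests). The remaining pairs did not differ beyond their spread. Khsrp and Zc3h12a differed by 0.16 ± 0.56, Zc3h12a and Elavl1 by 0.68 ± 0.87, and Elavl1 and Zc3h12d by 0.27 ± 0.29 on the log2 scale (exact permutation p = 0.750, 0.500 and 0.500).

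Across families, Zfp36 was 19.7-fold above Zc3h12a, with log2 differences of 4.12, 4.63 and 4.15 in replicates 1 to 3 (4.30 ± 0.29, SD, n = 3; exact permutation p = 0.25, adjusted 0.357). The second transcript table gave a smaller log2 difference of 3.06 ± 0.10 (SD, n = 3). Elavl1, the stabilising factor, was 31.6-fold below Zfp36, at log2 differences of -4.53, -4.61 and -5.81 (-4.98 ± 0.72, SD, n = 3; exact permutation p = 0.25, adjusted 0.357). Both differences from Zfp36 had the same direction in 3 of 3 libraries. Within the Regnase family, which summed to 31.4 ± 2.32 TPM, Zc3h12a made up 55.2%, 45.8% and 68.3% in replicates 1 to 3. Zc3h12d made up 29.2 ± 7.17%, Zc3h12c 13.1 ± 3.79% and Zc3h12b 1.30 ± 0.496% (SD, n = 3). Per read rather than per length, Zc3h12a held only 37.2 ± 10.6% of the family's expected counts, where the most counted transcript has 2755 bases for Zc3h12a and 4092 to 6914 bases for the others.

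Most reads assigned to Zfp36 (ENSMUSG00000044786.6, chromosome 7, 28376784 to 28380253, minus strand) were given to a transcript that contains its intron. The annotation has a spliced transcript, Zfp36-201, with 2 exons, and a transcript of 1 exon, Zfp36-202, that runs through the 680-base intron between them (28378494 to 28379173). The ends of that intron are shown because they mark where the 2 transcripts part, with 30 bases at each end on the minus strand of GRCm38, read 5′ to 3′ from Zfp36-202, and the first and last intron bases in capitals.
Zfp36 5′ splice site, chr7:28379154-28379183: catctacgagGTgagtacctgttagacagc
Zfp36 3′ splice site, chr7:28378484-28378513: ccgaaccctgttcctctcAGagcctccagt
The intron begins with GT and ends with AG, as most introns do, and it lies between the short first coding exon and the exon that holds the zinc fingers and the 3' UTR.

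Zfp36-202 took 14943, 12332 and 23910 expected counts in replicates 1 to 3, and Zfp36-201 took 3904, 3626 and 5220. The intron-holding transcript thus had 79.3%, 77.3% and 82.1% of the gene's counts, or 79.5 ± 2.41% (SD, n = 3). In the second transcript table it had 74.9%, 75.6% and 79.3%, or 76.6 ± 2.36%. The share was above 70% in every library by both methods. Of the 3691 measured genes with a transcript that spans a whole intron of their most counted spliced coding transcript, 125 (3.39%) had a larger share than Zfp36, and the median share was 20.3%. The annotation types Zfp36-202 as protein-coding and not as retained intron, so a tally by type leaves it out. Over all measured genes, 8.43% of counts on intron-spanning transcripts fell on ones typed as protein-coding and 84.8% on ones typed as retained intron.

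These shares come from a model that divides reads and do not count reads inside the intron. The intron makes up 27.6% of Zfp36-202, and 1785 of its 2465 bases are also exon of Zfp36-201. Zfp36-201 starts 1025 bases upstream of the RefSeq start of the gene and Zfp36-202 starts 27 bases upstream of it. The part of that upstream start in the division of reads was not tested. Zfp36-201 alone had 60.1, 67.8 and 62.2 TPM in replicates 1 to 3 (63.4 ± 3.95, SD, n = 3). On that count Zfp36 no longer stood apart from Zfp36l1 at 65.3 ± 16.6 TPM, its share of the family was 39.2 ± 3.35%, and its log2 difference from Zc3h12a was 1.85 ± 0.44.

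**Figure D2:**
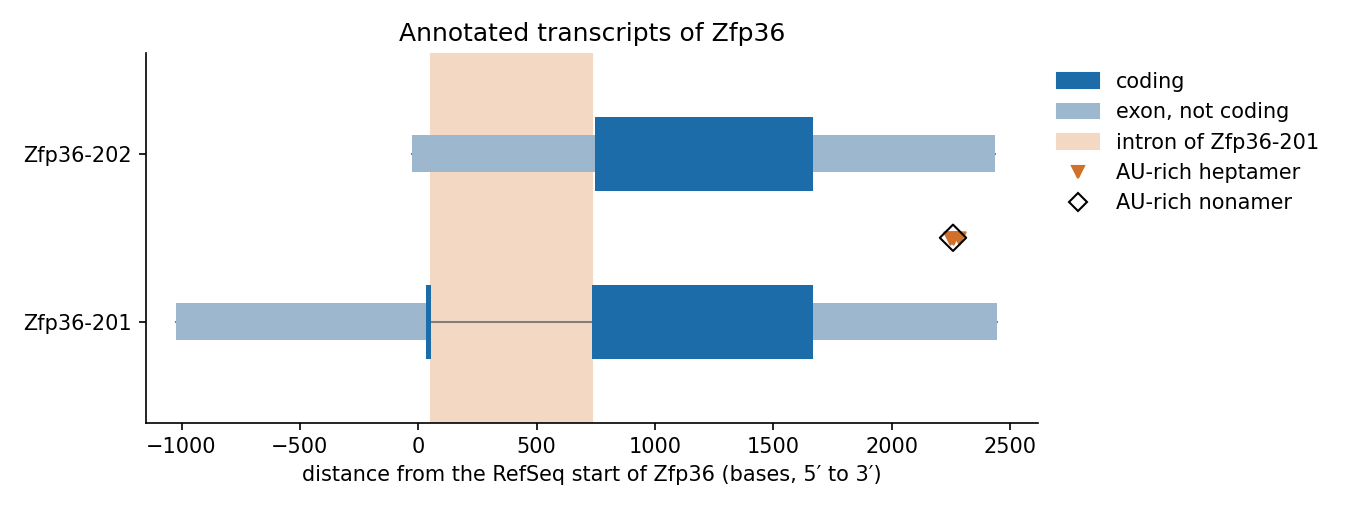
The 2 annotated transcripts of Zfp36, drawn to scale by distance in bases from the RefSeq start, with coding sequence as tall boxes, other exon sequence as low boxes and the 680-base intron of Zfp36-201 shaded. Zfp36-202 crosses the whole shaded intron, Zfp36-201 begins 1025 bases upstream of the start, and the AU-rich motifs lie together near the 3′ end.

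**Figure D3:**
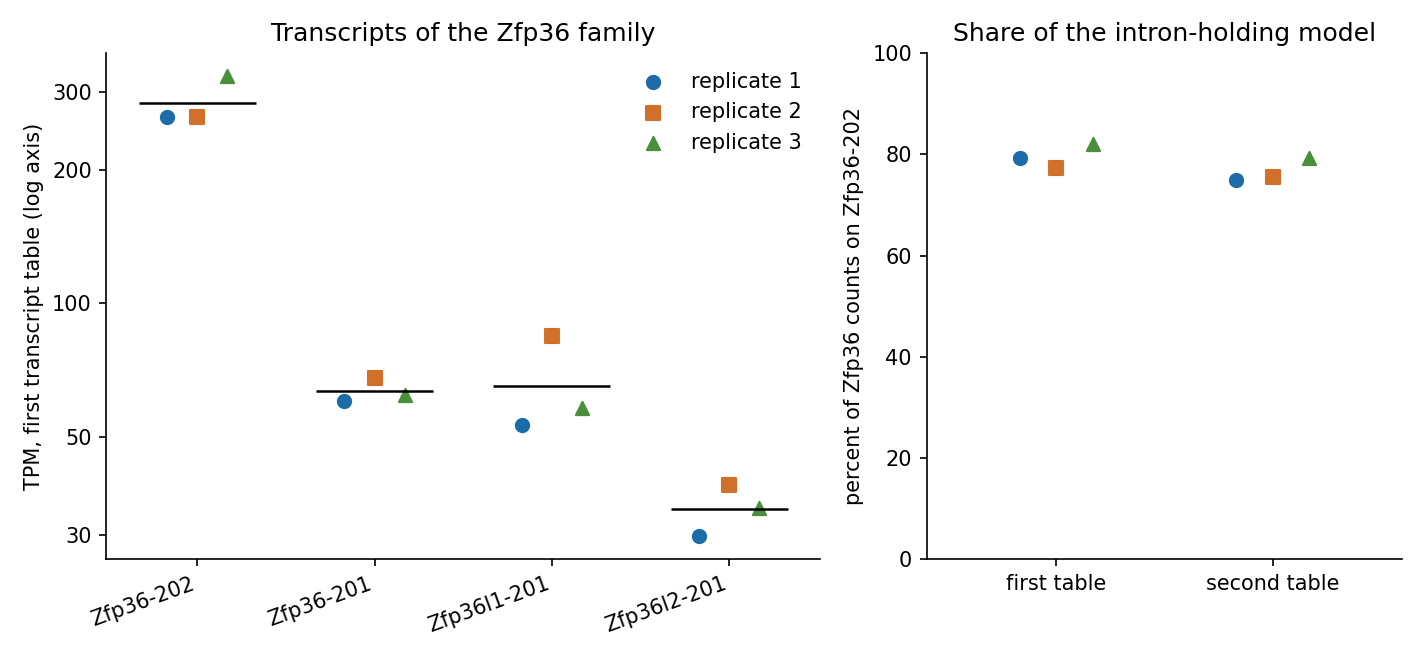
Left, TPM of the Zfp36 family's counted transcripts on a log axis, 1 symbol per replicate with a bar at the mean. Right, the percentage of Zfp36 counts on Zfp36-202 in both transcript tables. Zfp36-202 has a mean of 284 TPM, Zfp36-201 of 63.4 TPM is level with Zfp36l1-201, and the share of Zfp36-202 lies between 74.9% and 82.1%.

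The other family members have no such transcript. Zfp36l1-201 held 100%, 100% and 99.9% of Zfp36l1 counts in replicates 1 to 3, and Zfp36l2 has 1 transcript with 2 exons, so retained introns of these genes could not be seen in the deposited tables. Among genes with a transcript typed as retained intron, Elavl1 had 21.6%, 21.9% and 15.1% of its counts on such transcripts, led by Elavl1-202 at 18.1 ± 2.65%. Khsrp had 3.45%, 4.41% and 3.15%, and Zc3h12a 3.59%, 4.39% and 5.65% through Zc3h12a-202. Over these 3 genes the share was 9.30 ± 2.16%, against 22.8 ± 1.38% over 7232 measured genes with such a transcript (SD, n = 3). In the second table it was 14.3 ± 2.42% of counts for the 3 genes and 25.8 ± 1.89% over all such genes. By counts, the 3 genes thus lay lower in both tables. By TPM of the first table the 3 genes had 25.4 ± 4.41%, and the TPM share over all genes was not computed. The difference was not tested.

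The tables disagreed on several isoforms. The second table put 16.8 ± 3.42% of Zc3h12a counts on Zc3h12a-202, where the first put 4.54 ± 1.04% (SD, n = 3). Zc3h12c-201, a coding transcript, had 0 counts in every library of the first table and 536, 199 and 500 estimated counts in the second. Elavl1-204, a coding transcript, had 103, 0 and 103 counts in the first and 265, 102 and 314 in the second. Levels of these isoforms therefore depend on the method. For Zc3h12b the tables were close, with Zc3h12b-203, a transcript typed as a target of nonsense-mediated decay, holding 96.6 ± 3.29% of counts in the first and 94.8 ± 3.61% in the second (SD, n = 3).

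On the opposite strand, the annotation places Gm44710 over Zfp36, Gm26669 over Zfp36l1 and AC132455.1 over Zfp36l2. The sources used here do not state whether counting used strand, so reads of each pair cannot be told apart if it did not. Gm44710 had 4, 5 and 8 counts and AC132455.1 had 0, 1 and 0, far below their partners. Gm26669 had 919, 334 and 833 counts, beside 3720, 4857 and 5252 for Zfp36l1. Gm26669 was lowest in replicate 2, where Zfp36l1 was not.

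Libraries were then compared on log2 CPM with TMM scaling, each against the mean of the other 2. None of the 9 genes was at least 2-fold above or below both other libraries in any replicate. Over all 15881 measured genes, 4.85% were above and 3.22% below in replicate 1, 0.856% and 2.22% in replicate 2, and 1.55% and 1.39% in replicate 3, so a count of 0 among 9 genes is near the background. The median SD of log2 CPM was 0.304 over the 9 genes and 0.320 over all measured genes. At 1.5-fold, 2 of the 9 genes passed. Zc3h12a was below in replicate 2, where 6.26% of genes were below and 3.99% above, and Zfp36 was above in replicate 3, where 4.89% were above and 5.74% below. None of the 9 passed in replicate 1, where 10.4% of genes were above and 8.46% below.

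Zc3h12a varied most among the 9 genes. It had 1012, 579 and 1436 counts, or 54.7, 33.4 and 68.6 CPM, in replicates 1 to 3. Relative to the mean of the others, replicate 2 stood at log2 -0.91 and replicate 3 at 0.86, with replicate 1 between them at 0.05. Of all measured genes, 19.4% had a larger SD than the 0.591 of Zc3h12a. Zfp36 had 1018, 920 and 1391 CPM, with replicate 3 at log2 0.70 and replicates 1 and 2 at -0.29 and -0.41. Zfp36 thus stood highest in replicate 3, and 36.8% of measured genes had a larger SD than its 0.407.

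The remaining genes moved less. Zfp36l1 was lowest in replicate 1 at 201 CPM, against 280 and 251 CPM in replicates 2 and 3. Zfp36l2 was at 135, 154 and 177 CPM. Elavl1 had 73.4, 67.3 and 48.8 CPM, Zc3h12c 42.8, 36.6 and 28.3 CPM and Zc3h12b 4.21, 3.29 and 2.34 CPM, each lowest in replicate 3. Khsrp was lowest in replicate 2 at 68.0 CPM, against 96.4 and 74.2 CPM in replicates 1 and 3. Zc3h12d had 51.3, 49.1 and 42.3 CPM. Its SD of log2 CPM with TMM factors was 0.0387, and 1.23% of measured genes had a smaller one, but the SD was 0.14 with library totals only and 0.08 in the second table.

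**Figure D4:**
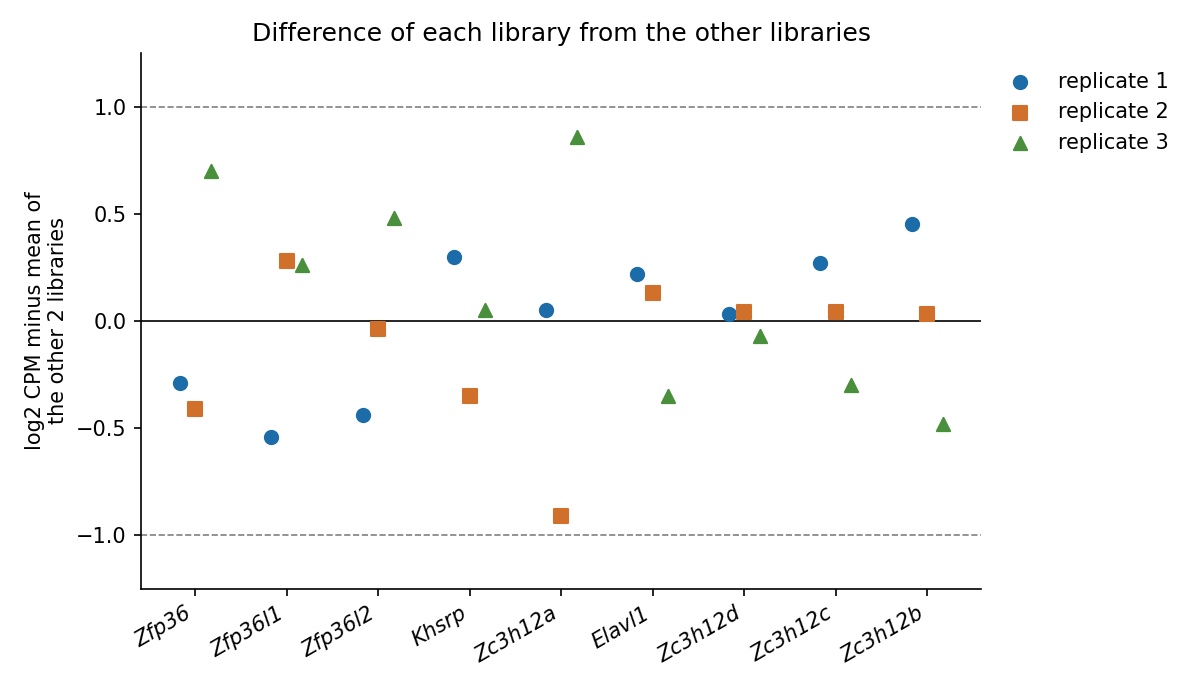
Difference in log2 CPM between each library and the mean of the other 2 libraries for the 9 genes, with dashed lines at 2-fold. No symbol passes the dashed lines, Zc3h12a spans from -0.91 in replicate 2 to 0.86 in replicate 3, and Zc3h12d stays within 0.07 of 0.

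Among 7688 other protein-coding genes with a mean of at least 10 CPM, those nearest to Zfp36 in centred log2 CPM over the 3 libraries were Tyrobp, a signalling adaptor of myeloid cells, Cdk5rap3 and Mfsd5, at Euclidean distances of 0.0122, 0.0125 and 0.0266. Nearest to Zc3h12a were Cracr2b, Dapk3, a protein kinase, and Tagap, at 0.0610, 0.0632 and 0.0932. With 3 libraries, many genes are bound to lie close together, and the distances describe these libraries only.

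Genes with related roles were read beside the 9 factors. Of 11 other AU-rich element binders, 7 were measured and all 7 were at 10 TPM or more, led by Hnrnpdl at 74.1 ± 16.4 TPM and Hnrnpd (AUF1) at 42.2 ± 7.02 TPM. Elavl2 and Elavl4, the neuronal relatives of Elavl1, had 0 counts throughout. At these depths a count of 0 leaves room for up to 0.162, 0.173 and 0.143 CPM. All 8 partners and modifiers of stem-loop decay were measured, between 9.40 and 38.7 TPM. Malt1, the protease that cleaves Regnase-1, was at 38.7 ± 13.3 TPM and Rc3h2 (Roquin-2) at 25.3 ± 8.34 TPM, with Btrc at 9.83 ± 2.50 and N4bp1 at 9.40 ± 1.34 TPM at the low end. Arid5a, which protects stem-loop mRNAs, was the 1 gene of this list past 2-fold, at 844 counts in replicate 1 against 1529 and 2033 in the others, and is named for that value. In replicate 1, 3.22% of all measured genes were 2-fold below.

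Of the genes listed for the decay machinery that these factors recruit, all but Exosc6 were measured. Of 13 deadenylase genes all were measured and 8 reached 10 TPM, from Pan3 at 71.2 ± 10.8 and the scaffold Cnot1 at 44.5 ± 15.7 TPM to Cnot11 at 4.92 ± 1.53 and Parn at 4.92 ± 1.23 TPM. Among 9 decapping and 5' decay genes, the helicase Ddx6 at 26.6 ± 4.52 and the exonuclease Xrn1 at 19.7 ± 3.25 TPM led, and Edc3 at 4.11 ± 0.906 and Lsm1 at 1.63 ± 0.210 TPM were lowest. The exosome list covers genes of the 3' to 5' degradation complex and its cofactors. It had a median of 7.09 TPM, with 12 of 13 measured. Skiv2l at 17.8 ± 1.54 and Exosc10 at 10.8 ± 2.13 TPM led that list, Exosc4 was at 1.59 ± 0.410 TPM, and Exosc6 had 0 counts. No measured gene of these 3 lists was 2-fold from both other libraries. Over all 15881 measured genes there were 2238 such calls, and 847 over the 10278 with a mean count of at least 100. These calls are added over libraries and directions, so a gene counts for each library where it passed. By their median of 17.8 TPM, the 9 factors lay above the deadenylases at 13.2, the decapping genes at 9.81 and the exosome list. They also lay above the stem-loop decay partners and modifiers at 12.6 TPM. They lay below the other AU-rich element binders at 35.5 TPM and the kinases and phosphatases described next at 29.4 TPM. The ranges overlapped.

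The kinases and phosphatases that act on Zfp36 or Zc3h12a protein, directly or through another kinase, were all measured. Over 8 genes their median was 29.4 TPM. None was past 2-fold, where the 15881 measured genes gave 2238 such calls, with a gene counted for each library where it passed. Dusp1, the phosphatase that turns off p38, was at 172, 143 and 174 TPM and stood out from the list. Ikbkb, the kinase that marks Regnase-1 for degradation, was at 39.4 ± 6.15 TPM. Mapkapk2, which phosphorylates Zfp36, was at 21.3 ± 2.17 TPM and Ppp2ca, a phosphatase subunit that reverses this, at 15.7 ± 4.12 TPM. These levels of kinase RNA say nothing of kinase activity.

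Known target mRNAs of Zfp36 differed widely between libraries. Of 10 such genes 8 were measured, with a median SD of log2 CPM of 0.888, where it was 0.304 over the 9 factors and 0.320 over all measured genes. Tnf, the best known target, had 13005, 1863 and 8269 counts in replicates 1 to 3, or 363, 63.1 and 177 TPM. Cxcl2, a neutrophil chemokine, had 6291, 2214 and 7484 counts, or 187, 77.5 and 174 TPM. Both were lowest in replicate 2, and with Cxcl1, named for its value, they were the 3 of 8 targets that passed 2-fold on the low side there, where 2.22% of all genes were. In replicate 3, the 3 targets at least 2-fold above were Il1b, Il10 and Ptgs2, also named for their values, against 1.55% of all genes. Ptgs2 was 2-fold below in replicate 1 as well, with 285 counts against 693 and 1961. Il23a and Csf2 were near 0, at 0.25 ± 0.139 and 0.0167 ± 0.0289 TPM.

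Of 7 known Zc3h12a targets, 3 were measured. Tfrc, the transferrin receptor, had 198, 243 and 175 TPM, and Nfkbiz, an atypical IκB protein, 54.9, 20.1 and 71.9 TPM. In replicate 2 Nfkbiz was past 2-fold on the low side, with 1401 counts against 4619 and 7766 in replicates 1 and 3. Il2 had 0 counts, and Il6 had 4, 3 and 16. On log2 CPM, replicate 2 was the lowest library for the measured targets Tnf, Cxcl1, Cxcl2, Il1b, Ier3 and Nfkbiz. Replicate 1 was the lowest for the measured targets Ccl3, Il10, Ptgs2, Il12b and Tfrc. Of the 9 factors, Zfp36, Zc3h12a and Khsrp were lowest in replicate 2 and the others in replicate 1 or 3. Replicate 2 was also the library made from less RNA. The part of RNA input in these values was not tested.

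**Figure D5:**
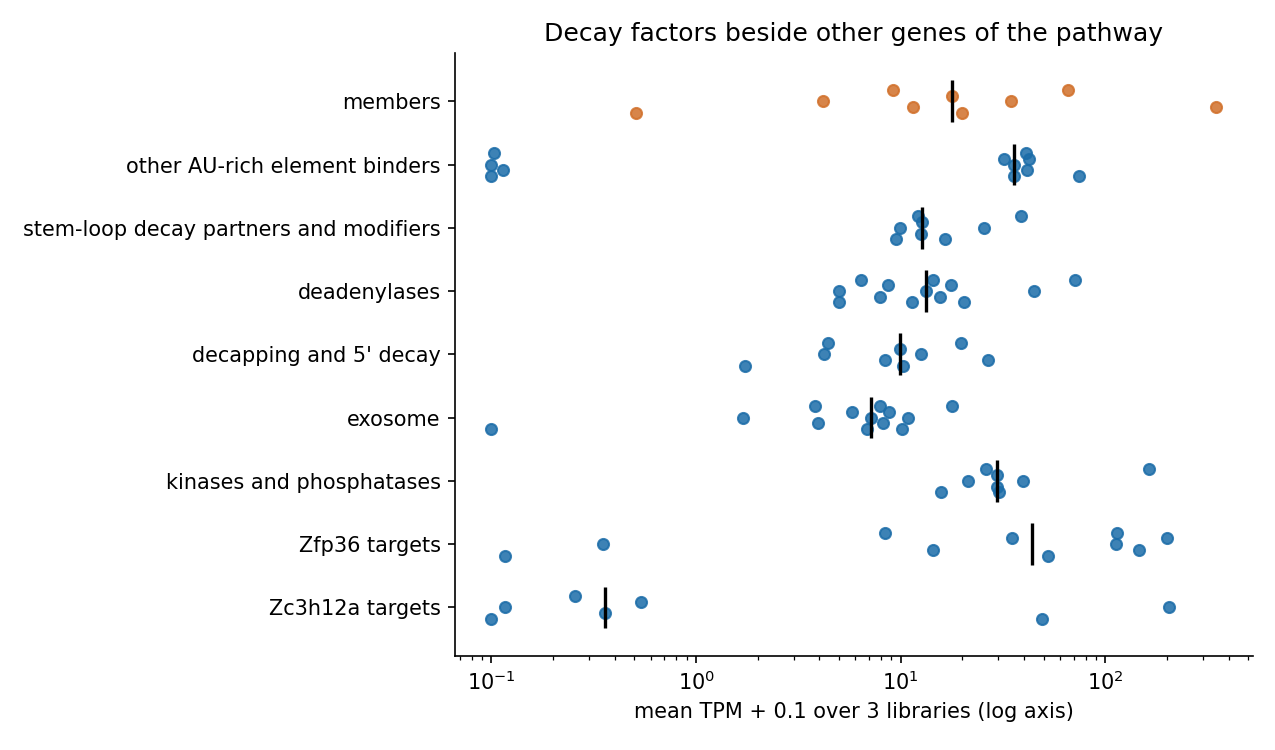
Mean TPM + 0.1 over 3 libraries, on a log axis, for the 9 decay factors (top row, labelled members) and for the genes of each related list, with 1 point per gene and a bar at the list's median. The 9 factors reach from Zc3h12b near the low end to Zfp36, which lies to the right of every gene of the other lists.

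AU-rich motifs were searched in the annotated 3' UTR of each gene's most counted coding transcript, reading along the transcript only and counting overlapping matches. For Zc3h12b that transcript is Zc3h12b-203, whose 3' UTR is long because its reading frame ends early in the annotation. The heptamer TATTTAT is the core that Zfp36 proteins bind, and the nonamer TTATTTATT contains it with 1 more base on either side. Of 11850 measured genes with a 3' UTR, 29.3% held the heptamer and 7.78% the nonamer. Among the 9 factors, 5 held the heptamer and 4 the nonamer, namely Zfp36, Zfp36l1, Zfp36l2 and Elavl1. The sites are shown, on the minus strand of GRCm38 with the nonamer in capitals, because they place the motif in the mRNAs of the Zfp36 genes themselves. For Elavl1 the first of 8 matches, some of which overlap, is given.
Zfp36, chr7:28376950-28376979: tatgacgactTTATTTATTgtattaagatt
Zfp36l1, chr12:80108166-80108195: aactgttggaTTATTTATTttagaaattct
Zfp36l2, chr17:84184913-84184942: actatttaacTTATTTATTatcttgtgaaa
Elavl1, chr8:4285787-4285816: gtcatgaaaaTTATTTATTtatttatttat
The flanking bases of the Zfp36, Zfp36l1 and Zfp36l2 sites differ, while the 9 bases in capitals are shared by construction of the search.

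The length of a 3' UTR sets how often a motif is met. The 3' UTR of Zfp36 has 767 bases with 3 heptamers and 1 nonamer, and 4.42% of 1336 genes within 20% of that length held a nonamer. Those of Zfp36l1 and Zfp36l2 have 1835 and 1822 bases with 3 heptamers and 1 nonamer each, where 8.64% and 8.66% of genes of like length held one. Elavl1 has 4218 bases, and 17.4% of genes of that length held a nonamer. For the heptamer, the shares of genes of like length were 19.8% for Zfp36, 38.1% for Zfp36l1, 38.2% for Zfp36l2 and 59.2% for Elavl1. Zc3h12c held 2 heptamers and no nonamer in 4062 bases, where 59.4% of genes of like length held a heptamer. No match to either motif was found for Zc3h12a, Zc3h12b, Zc3h12d or Khsrp in 856, 6569, 2327 and 1642 bases. At these lengths 21.2%, 69.5%, 40.3% and 36.0% of genes held a heptamer. Among the Zfp36 targets, Tnf held 5 nonamers in 764 bases, Cxcl2 held 4 in 734 and Cxcl1 held 2 in 592. Of genes of like length, 4.49%, 4.47% and 3.70% held a nonamer. Ptgs2 held 1 in 2445 bases, where 11.3% of genes of like length held one. The other measured targets Ccl3, Il1b, Il10 and Ier3 held the heptamer but no nonamer. A match describes the letters and is not a measured binding site.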

How the data were processed

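Nuclear (in some labels nucleoplasmic) RNA depleted of ribosomal RNA was sequenced by the submitters from 3 replicates. Per the file headers, each gene and transcript table holds expected counts (reads divided by a model) and TPM deposited by the authors, with RSEM's column names. A second transcript table holds estimated counts and TPM, with kallisto's column names. The deposited notes name mm10 and GENCODE M21. For program versions and strandedness, the sources used here give nothing. Rows naming no gene held 1.24%, 0.372% and 0.0641% of counts and were left out.

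Counts were rounded, genes with a mean of at least 10 kept, and log2 CPM computed with edgeR 4.0.16 (TMM, prior count 2), with DESeq2 1.42.0 size factors as an alternative. Levels used log2(TPM + 0.1), so fold values of low genes are understated. Tests were exact sign-flip permutation tests. As a check for a library deposited more than once, counts were compared by pair, and none matched (chi-square per degree of freedom of 82.1 or more). The factors, lists and comparisons were chosen with earlier results of these data known. The transcripts-spanning-an-intron tally and the motif search were chosen after seeing the data. All 9 factors were named; from each list the 2 highest and 2 lowest by mean TPM (for lists under 8, the 2 highest and 1 lowest), and the 3 genes nearest in pattern to Zfp36 and Zc3h12a. Promoter starts came from RefSeq (GRCm38.p6) and transcript sequence from GENCODE M21 (GRCm38).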

Additional observations from a re-analysis of the deposited data

How the results depend on the processing

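With a pseudocount of 1, without any 1 replicate, or in the second transcript table, Zfp36 stayed above Zc3h12a (log2 3.06 to 4.39) and Elavl1 below Zfp36 (log2 -5.21 to -4.53). With Zfp36 taken from its spliced transcript alone, an alternative chosen after seeing the data, the differences were 1.85 and -2.53, the share of Zfp36 in its family moved to 39.2%, and Zfp36 and Zfp36l1 changed places with 4 pairs separated. That follows from leaving out Zfp36-202. By expected counts the share was 73.2%. The share of Zc3h12a was 70.4% in the second table and 37.2% by expected counts. The second table separated all 8 neighbouring pairs, with Zc3h12a above Khsrp. Without replicate 2, 6 pairs were separated. Zc3h12a was then also above Khsrp in the mean difference, but that pair was not separated. The cause was not tested. At 1.5-fold, 2 of the 9 genes were outside both other libraries, against 0 at 2-fold under all other scalings and filters. The retained-intron share was 25.4% by TPM and 14.3% in the second table (cause not tested), and 74.2% over 3 genes with transcripts that span a whole intron, a set that adds Zfp36 and Zc3h12b and leaves out Elavl1 and Zc3h12a. Leaving out replicates in turn gave 76.3 to 80.1% for Zfp36, 50.5 to 61.8% for Zc3h12a, 5 to 7 separated pairs and 8.25 to 10.4% for retained introns. Levels in TPM moved beyond their SD for 7 of 9 genes in the second table and for 9 of 9 when scaled over protein-coding genes. DESeq2 factors changed the sign of 0 of 27 library differences. Library totals turned 1 (Khsrp in replicate 3, -0.13 from 0.05) and the second table turned 3 (Zc3h12c in replicate 2, -0.28 from 0.04, and Zc3h12d in replicates 2 and 3, -0.14 from 0.04 and 0.10 from -0.07). No paired analysis was possible because the labels give 1 group. With 49 to 78 counts, Zc3h12b is the factor that depth limits most.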
